A study of Mus musculus with 6 samples.

Results

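The prolactin receptor gene Prlr, the kinase gene Jak2, the transcription factor genes Stat5a, Stat5b and Stat3, and the feedback inhibitor genes Cish, Socs1, Socs2 and Socs3 were followed in mammary tumours of MMTV-PyMT mice. The set was chosen by symbol with the agonist and vehicle levels of these libraries, those of Stat5a and Stat5b above all, already in view. Its 9 genes were read from 55487 gene rows, and all 9 were among the 17396 genes with enough reads to test. In this transgenic model the mouse mammary tumour virus promoter drives the polyoma virus middle T antigen in mammary epithelium, and every animal of both groups carried it. RNA was sequenced from 3 tumours of mice given DMHCA, which activates the liver X receptors (LXR), and from 3 tumours of mice given vehicle, in both cases by mouth in Medigel cups without a break from 6 weeks of age. Each library held 36577451 to 42595799 estimated reads. The age at collection is not in the labels, nor is it stated whether the 3 tumours per treatment grew in different animals. Within each treatment the titles repeat a single code, so an origin common to 1 treatment and the treatment itself cannot be told apart. The p-values cover only the spread among these 6 libraries, part of which may be technical.

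Prolactin binding pairs the receptor chains and activates the associated kinase JAK2, which phosphorylates the receptor and the transcription factors STAT5A and STAT5B. Paired STAT5 then enters the nucleus, where it drives alveolar development and milk protein genes in the mammary gland. It also induces CISH and SOCS2, which bind the activated receptors and damp the signal. STAT3, activated mainly by the LIF and IL-6 family through the shared receptor chain gp130, drives the involution of the gland after weaning and induces SOCS3. RNA levels do not show how much of any STAT protein was phosphorylated.

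The promoter windows of the RefSeq tables (build GRCm38.p6, 250 bases before to 50 bases after each annotated start) held 12 windows for 8 of the 9 genes. The motif TTCNNNGAA, the core that STAT5 and STAT3 dimers bind, reads alike on both strands and was found at least once in 8.3% of 32851 windows of the same length. Cish had 2 matches, at bases 1 and 12 counted from its annotated start, as did 0.457% of windows with at least 2. Prlr had 1 match in its second window, TTCTAGGAA at base -110, and Socs3 had 1, TTCTTAGAA at base -154. The Cish window is printed because Cish is the standard reporter of STAT5 activity among these genes. It lies at chr9:107296409-107296708 on the plus strand, and capitals mark the motif matches.
Cish: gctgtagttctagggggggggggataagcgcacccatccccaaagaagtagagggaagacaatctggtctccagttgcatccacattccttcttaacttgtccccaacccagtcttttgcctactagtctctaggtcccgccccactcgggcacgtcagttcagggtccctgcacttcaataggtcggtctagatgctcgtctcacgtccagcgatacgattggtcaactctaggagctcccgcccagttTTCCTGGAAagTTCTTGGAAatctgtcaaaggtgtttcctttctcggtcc

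Stat5a and Stat5b are printed together because the results turn on both. They share a stretch of 65 bases, 58 of them identical, just before an annotated start of Stat5a and across an annotated start of Stat5b. It lies at chr11:100860418-100860482 on the plus strand for Stat5a and at chr11:100822563-100822627 on the minus strand for Stat5b, in each case at a start inside the annotated gene body. Capitals mark the bases that differ between the copies.
Stat5a: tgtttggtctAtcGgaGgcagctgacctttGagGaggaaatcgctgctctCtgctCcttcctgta
Stat5b: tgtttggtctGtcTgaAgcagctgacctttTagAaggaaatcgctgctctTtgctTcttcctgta
Both copies hold the letters tgacct, the reverse complement of AGGTCA, the half-site that LXR and many other nuclear receptors read in pairs. AGGTCA, searched on both strands with overlaps allowed, occurred in 16.3% of all windows. A further Stat5a window held it at base -46, and the other Stat5b window held 0 matches. Such matches are letters in a window and show no binding.

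Among the signal carriers, both STAT5 genes were lower in every agonist library than in any vehicle library. Stat5a is the main STAT5 form of the mammary epithelium. It lies at chr11:100859351-100885169 on the plus strand and had 45.6, 69.8 and 62.1 CPM in agonist replicates 1, 2 and 3. CPM are counts scaled to a common library size with TMM factors. The vehicle libraries had 96.2, 99.7 and 98.3 CPM of Stat5a. The agonist libraries were thus low and spread out, the vehicle libraries high and close together, and the groups did not overlap. The means were 59.2 ± 12.4 and 98.1 ± 1.73 CPM (SD, n = 3), and the log2 fold change was -0.73 ± 0.18 (SE; 95% interval -1.14 to -0.31).

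Stat5b, the close paralog that also serves growth hormone signalling, lies at chr11:100780731-100850724 on the minus strand. It had 68.6, 76.6 and 81.8 CPM with agonist and 115, 111 and 113 CPM with vehicle. Here too all agonist libraries were below all vehicle libraries. The means were 75.7 ± 6.64 and 113 ± 2.22 CPM (SD, n = 3). The difference on the log2 scale was -0.58 ± 0.14 (SE), with a 95% interval from -0.90 to -0.26. Summed over both genes, the vehicle libraries had 211, 210.5 and 212 CPM, and the agonist libraries had 114, 146 and 144. Reads from the near-identical coding parts are shared between the paralogs by estimation, so the division between them is less certain than the sum.

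Neither gene passed the threshold over all genes tested. The unadjusted p of the edgeR quasi-likelihood test was 0.00376 for Stat5a and 0.00304 for Stat5b, and the Benjamini-Hochberg adjusted p was 0.99 for both. Of the 9 genes, 0 were called by edgeR at an adjusted p of 0.05, beside 0% of all genes tested, and 2 had an unadjusted p under 0.05, beside 3.09%. Both were lower with agonist, beside 2.37% in that direction. DESeq2, limma-voom and limma-trend on TPM also called 0 of the 9 and each had 2 at an unadjusted p under 0.05. Over all genes that share was 2.66% with DESeq2, 6.96% with limma-voom and 2.16% with limma-trend on log2(TPM + 1). The groups did not overlap for 2 of the 9 genes, beside 7.24% of all genes. These were 2 lower with agonist, beside 4.22%, and 0 higher, beside 3.02%. The genes were proposed with these differences in view, so the counts describe the choice and support nothing.

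**Figure D1:**
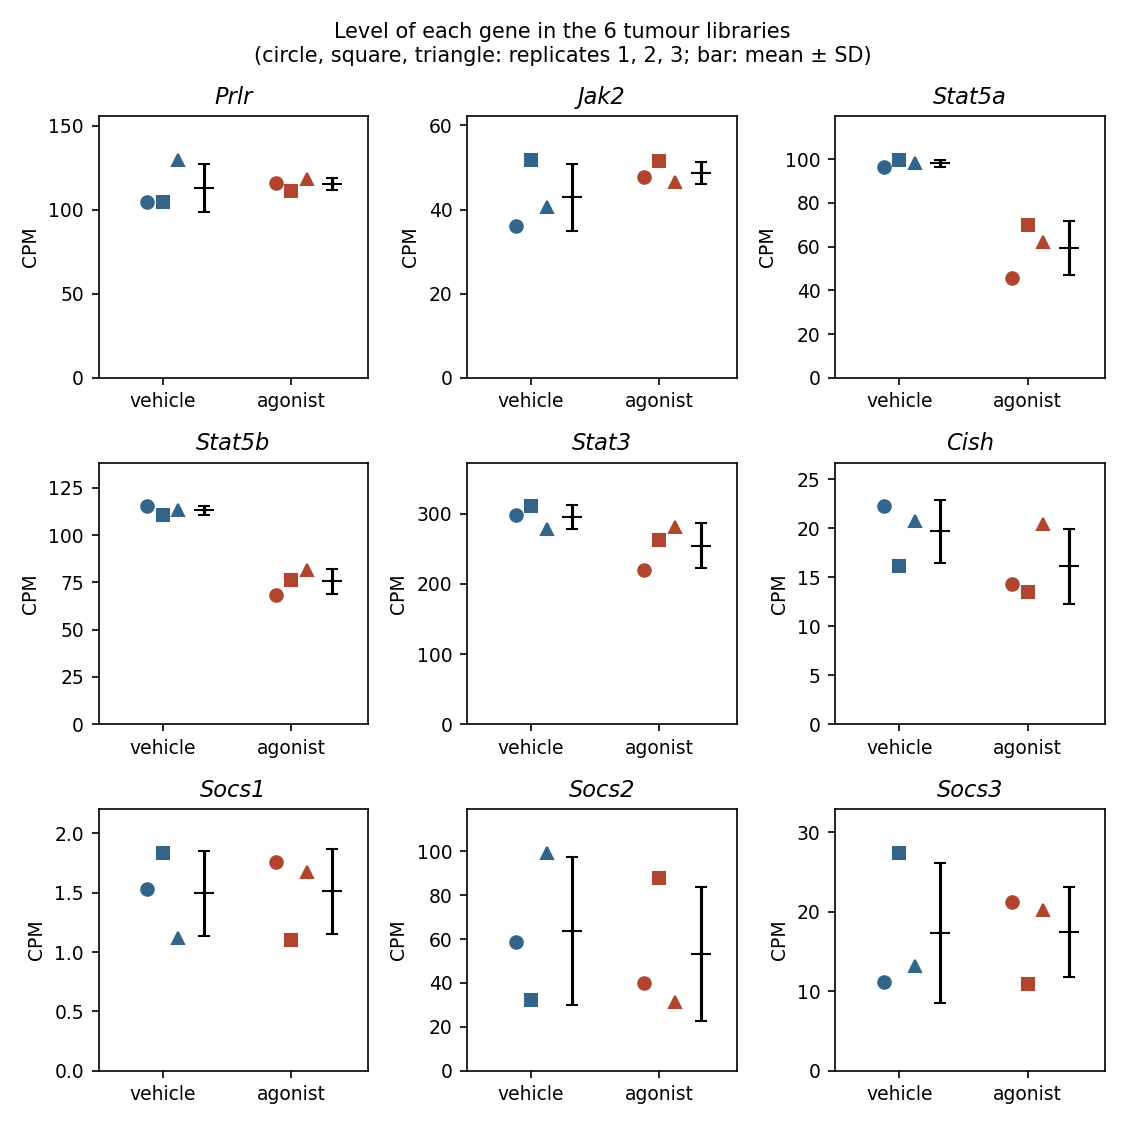
Level in CPM (vertical axes, from 0) of each of the 9 genes in the vehicle (blue) and agonist (red) libraries, with circle, square and triangle for replicates 1, 2 and 3 and a bar for the mean ± SD of 3 libraries. The groups separate for Stat5a and Stat5b and overlap for the other 7 genes.

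Fewer cells of a type and less RNA per cell cannot be told apart in bulk tumours. The luminal epithelial markers Epcam, Krt8, Krt18, Krt19, Cdh1 and Cldn3 were read in every library. Their summed level was 3568 to 3860 CPM with agonist and 3843 to 4789 CPM with vehicle, and 5 of the 6 had negative log2 fold changes. Per 1000 luminal marker counts, Stat5a had 12.2, 18.1 and 17.4 counts with agonist and 25.04, 20.8 and 25.3 with vehicle. Stat5b had 18.3, 19.8 and 22.9 against 30.0, 23.1 and 29.1 on this scale, and neither gene's groups overlapped. For Stat5b the margin was narrow, at 22.9 against 23.1. Jak2 also separated on this scale, upward, at 12.8, 13.4 and 13.0 against 9.40, 10.8 and 10.5, while Stat3 and Prlr overlapped. The numerators are STAT5 levels already in view when the genes were chosen. The separation of Stat5a and Stat5b here therefore largely restates their difference and is no further result. A fit that also held the luminal sum, added once the data had been seen, gave log2 fold changes of -0.70 for Stat5a and -0.62 for Stat5b.

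Stat3, the third STAT gene of the same chromosomal cluster, runs toward Stat5a from the other side at chr11:100885098-100939540 on the minus strand. Its annotated end shares 72 bases with the end of Stat5a, where reads of the pair cannot be told apart without a stated strand setting. Stat3 had 219, 262 and 281 CPM with agonist and 297, 310.3 and 277 with vehicle. Agonist replicate 1 was the lowest library, while agonist replicate 3 lay above vehicle replicate 3, so the groups overlapped. The log2 fold change was -0.21 ± 0.16 (SE; 95% interval -0.58 to 0.15), and it was -0.12 without agonist replicate 1.

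The balance among the STAT genes was compared in TPM, which corrects for transcript length. Stat3 had 2.21, 2.08 and 2.33 times the summed TPM of Stat5a and Stat5b with agonist, and 1.80, 1.65 and 1.596 times with vehicle. These ratios did not overlap, with Stat3 weighing more against STAT5 in each agonist tumour. Their denominator is the STAT5 level that was in view when the genes were chosen. The separation therefore largely restates the STAT5 difference and is no further result. The ratio of Stat5a to Stat5b in TPM was 0.963, 1.46 and 1.10 with agonist and 1.33, 1.5005 and 1.34 with vehicle. The vehicle tumours all had more Stat5a than Stat5b transcripts, and only agonist replicate 1 had fewer.

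The receptor at the head of the pathway was nearly level across the tumours. Prlr lies at chr15:10177238-10349180 on the plus strand and had 116, 111 and 118 CPM with agonist and 105, 105 and 129.7 with vehicle. Vehicle replicate 3 was the highest library and the other vehicle libraries the lowest, so the agonist libraries fell inside the vehicle range. The log2 fold change was 0.028 ± 0.15 (SE), and changes within its 95% interval of -0.32 to 0.37 are compatible with these libraries. The annotated span of Gm21973, which was not among the genes tested, shares 23801 bases with that of Prlr on the same strand. What this did to the Prlr counts was not tested.

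Jak2, at chr19:29251828-29313080 on the plus strand, had 47.8, 51.5 and 46.5 CPM with agonist and 36.1, 51.8 and 40.7 with vehicle. The agonist libraries were close together, and vehicle replicate 2 was as high as the highest of them. The log2 fold change was 0.18 ± 0.16 (SE; 95% interval -0.20 to 0.56). It was 0.072 without vehicle replicate 1. Without vehicle replicate 2 it was 0.34, with an unadjusted p of 0.0493 and an adjusted p of 0.366 by edgeR, in a fit where 13.6% of all genes had an unadjusted p under 0.05. In TPM the Jak2 groups did not overlap, at 10.7, 12.3 and 10.4 with agonist and 8.76, 9.92 and 9.33 with vehicle. Groups without overlap in TPM made up 7.77% of all genes tested, and in CPM the Jak2 groups overlapped.

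**Figure D2:**
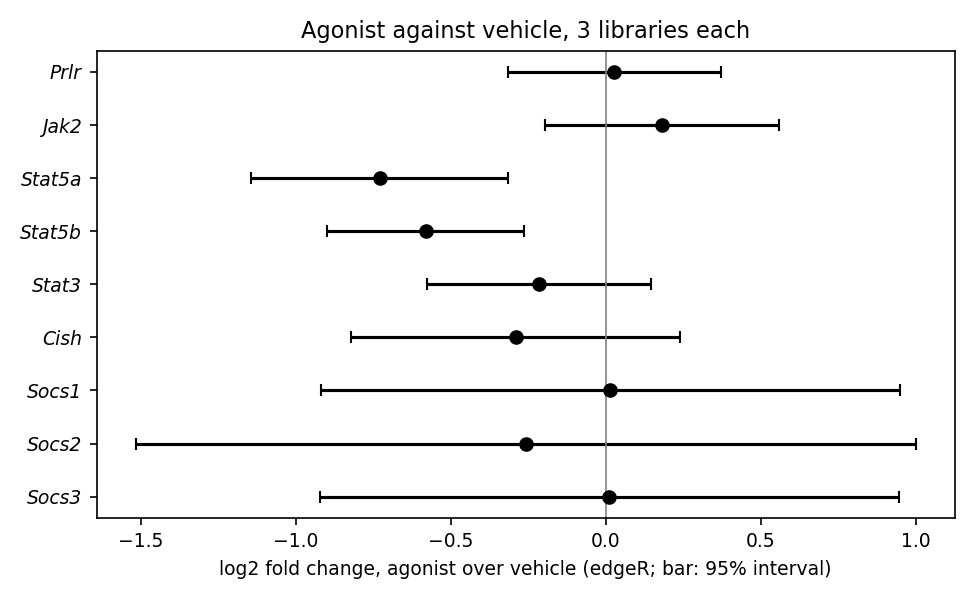
Log2 fold change of agonist over vehicle (horizontal axis) for each of the 9 genes, with a point for the edgeR estimate and a bar for its 95% interval. The intervals of Stat5a and Stat5b lie below 0 and the other 7 cross it, while no gene had an adjusted p under 0.05.

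The feedback genes varied widely within both groups. Cish, at chr9:107296026-107302784 on the plus strand, encodes the inhibitor that competes for receptor docking sites. It had 14.4, 13.5 and 20.5 CPM with agonist and 22.2, 16.1 and 20.8 with vehicle. Agonist replicate 3 was level with vehicle replicate 3, and vehicle replicate 2 lay among the agonist libraries. On the log2 scale Cish differed by -0.29 ± 0.23 (SE; 95% interval -0.82 to 0.24), and it was -0.50 without agonist replicate 3 and -0.18 without agonist replicate 2.

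Socs2, at chr10:95385362-95417180 on the minus strand, encodes a brake on growth hormone and prolactin signalling. It spanned 3.16-fold, with 39.9, 87.9 and 31.4 CPM with agonist and 58.7, 32.3 and 99.3 with vehicle. Each group held a library near the top and a library near the bottom of the whole range. On the log2 scale Socs2 differed by -0.26 ± 0.52 (SE; 95% interval -1.52 to 1.0002), and it ran from -0.83 without agonist replicate 2 to 0.22 without vehicle replicate 3.

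The mean length of the Socs2 transcripts, as RSEM weighted them, also differed between tumours. It was 1684 bases in agonist replicate 2 and 1873 in vehicle replicate 3, which had the highest Socs2 levels. In the other 4 libraries it was 1994, 2084, 2042 and 2056 bases. The mean was thus shortest where the gene was most abundant, in a tumour of each group.

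Socs3, at chr11:117966079-117970047 on the minus strand, encodes the inhibitor that binds gp130 and JAK kinases. It had 21.2, 10.9 and 20.2 CPM with agonist and 11.2, 27.4 and 13.2 with vehicle, a 2.51-fold span. The 3 libraries with the least Socs3, agonist replicate 2 and vehicle replicates 1 and 3, were the 3 with the most Socs2. This opposite order was noticed after the values were seen and describes 6 libraries only. The log2 fold change of Socs3 was 0.012 ± 0.40 (SE; 95% interval -0.92 to 0.95), and it was 0.51 without vehicle replicate 2 and -0.22 without vehicle replicate 1.

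Socs1, at chr16:10782240-10785536 on the minus strand, encodes an inhibitor of JAK kinases best known from interferon signalling. It was the scarcest of the 9 genes, with 65, 45 and 70 counts in the agonist libraries and 67, 69 and 45 in the vehicle libraries. In CPM it had 1.76, 1.10 and 1.67 against 1.53, 1.84 and 1.12. The lowest libraries were again agonist replicate 2 and vehicle replicate 3, although counting error is wide at this depth. For Socs1 the log2 fold change was 0.015 ± 0.40 (SE; 95% interval -0.92 to 0.95).

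**Figure D3:**
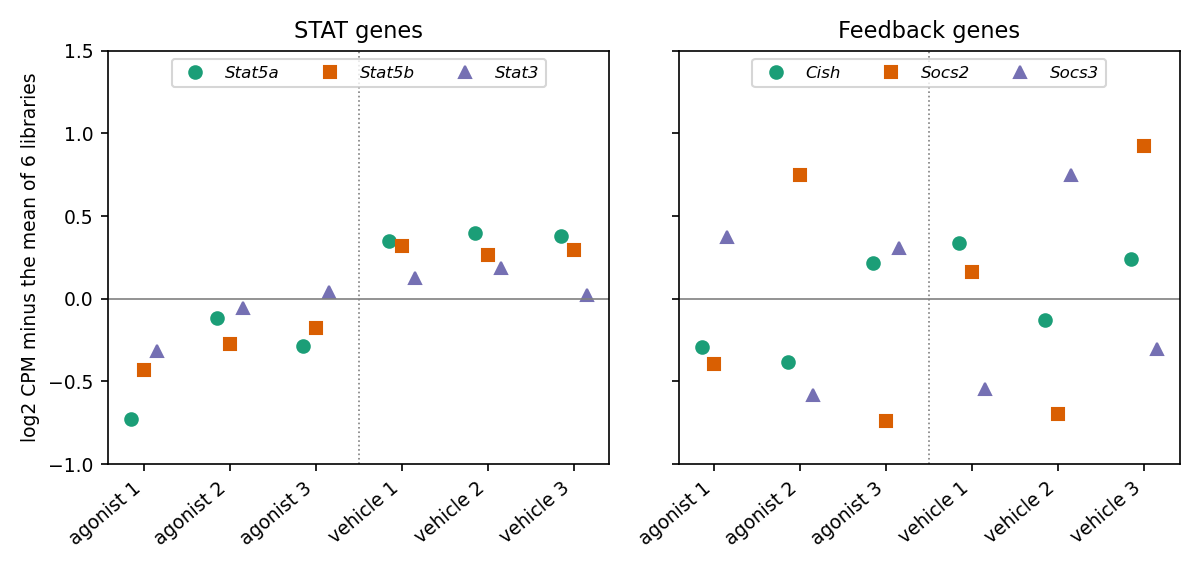
Log2 CPM minus the mean of the 6 libraries (vertical axis) for the STAT genes (left) and for Cish, Socs2 and Socs3 (right) in each library (horizontal axis), 1 point per gene and library. Stat5a and Stat5b are below 0 in the 3 agonist libraries and above it in the 3 vehicle libraries, while Socs2 is high where Socs3 is low in both groups.

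Markers of some other cell types split the libraries as Socs2 and Socs3 did, which was noticed after the values were seen. The libraries with low Socs3 and high Socs2 had the lowest summed level of the 6 fibroblast markers, at 2516, 1811 and 451 CPM in agonist replicate 2 and vehicle replicates 1 and 3. The other 3 had 4046, 3281 and 5673 CPM. The same 3 libraries were lowest for the myoepithelial markers, at 179, 168 and 61.5 against 214, 511 and 224 CPM, and for the skeletal muscle markers, at 518, 429 and 496 against 799, 630 and 618 CPM. Their part in the levels of Socs2 and Socs3 was not tested. The groups overlapped for all of these sums, and all 6 genes of each list had reads in every library. All 6 myoepithelial markers had positive log2 fold changes, with a median of 1.04, and 0 of them had groups without overlap. Of the 6, 2 had an unadjusted p under 0.05 by edgeR, beside 0.719% of all genes in that direction. Both were highest in agonist replicate 3. Myh11 had 3.12, 4.34 and 43.6 CPM with agonist and 3.28, 2.64 and 1.59 with vehicle. Acta2 had 51.7, 28.1 and 162 against 22.8, 33.3 and 8.23 CPM.

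The remaining marker lists also overlapped between the groups, except for B and plasma cells. Of these lists, the neutrophil sums were also lowest in the libraries with low Socs3, and the other sums did not follow that split. Adipocyte markers summed to 69.8 to 498 CPM with agonist and 28.6 to 772 with vehicle, endothelial markers to 50.8 to 76.1 and 32.9 to 74.0, and macrophage markers to 296 to 326 and 111 to 519. Neutrophil markers had 11.1 to 35.3 and 4.70 to 17.1 CPM, with 1 of 6 (Ly6g) without reads in any library, and T and NK cell markers 2.57 to 5.85 and 3.21 to 4.103. B and plasma cell markers had 2.27 to 17.8 CPM with agonist and 0.707 to 1.65 with vehicle. Their part in the STAT5 difference was not tested.

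Ordered by vehicle TPM, the levels ran from Stat3 (102) through Socs2 (40.9), Stat5a (35.1), Stat5b (25.4), Prlr (13.2), Jak2 (9.34), Socs3 (7.69) and Cish (7.03) to Socs1 (0.61). Stat3 was above every other gene in each vehicle library, at 88.5 to 118.8 TPM, and Socs1 below every other gene, at 0.47 to 0.70. Socs2, at 16.5 to 67.4 TPM, could not be ranked against either STAT5 gene. Stat5a (32.2 to 37.7) stood apart from Stat5b (21.5 to 28.3) and Stat5b from Prlr (10.6 to 15.4), while Jak2, Socs3 and Cish overlapped in turn. With agonist, Stat5a (14.5 to 26.7) and Stat5b (15.04 to 18.3) overlapped, and both came within reach of Prlr (13.6 to 13.8).

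The ligands and other receptors of the pathway gave few differences. Prl itself, the pituitary hormone gene, had 0 counts in all 6 libraries, and 3 counts correspond to 0.0704 to 0.082 CPM at this depth. Of 12 ligand genes 7 were tested, with 2 positive and 5 negative log2 fold changes, 0 called, and a median of -0.27 against -0.0049 over all genes tested. The ligand median was -0.47 without agonist replicate 1 and -0.15 without agonist replicate 2. Those with the smallest unadjusted p were Csf3, the granulocyte factor (1.37 ± 0.72, SE), Lif, the trigger of STAT3 in involution (-0.82 ± 0.45), and the IL-6 family member Clcf1 (-0.55 ± 0.42). Lif had 3.14, 4.71 and 3.29 CPM with agonist and 3.51, 5.46 and 10.7 with vehicle. Its difference rested largely on vehicle replicate 3, without which it was -0.26, and Clcf1 was then at -0.0035. Csf3 was at 2.15 without vehicle replicate 2.

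Of 12 other cytokine receptor genes 11 were tested, with 5 positive, 6 negative, 0 called and a median of -0.060, which was 0.20 without vehicle replicate 2. Lepr, the leptin receptor, had 34.0, 44.3 and 20.1 CPM with agonist and 10.2, 18.0 and 18.0 with vehicle. Every agonist library was above every vehicle library, by a small margin for agonist replicate 3. The log2 fold change of Lepr was 1.09 ± 0.34 (SE), with an unadjusted p of 0.0129 and an adjusted p of 0.99 by edgeR. Il6st, which encodes gp130, had 41.3, 44.4 and 44.4 against 56.0, 63.8 and 47.0 CPM (-0.36 ± 0.15), again without overlap. Its unadjusted p was 0.0448 and its adjusted p 0.99 by edgeR. Groups without overlap made up 3.02% of all genes tested higher with agonist and 4.22% lower. Epor, the erythropoietin receptor, was at -0.90 ± 0.64, and at -0.036 without vehicle replicate 1, the library with most of it. Ghr, the growth hormone receptor, had 50.5, 73.3 and 95.3 against 31.9, 70.1 and 133.6 CPM, a range within vehicle wider than any difference between the groups. Its log2 fold change of -0.10 ± 0.51 turned to 0.53 without vehicle replicate 3.

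All 7 other JAK and STAT genes were tested, with 2 positive, 5 negative, 0 called and a median of -0.27, with single libraries left out running from -0.38 (vehicle replicate 2) to -0.17 (agonist replicate 1). Jak3, the kinase of lymphocyte cytokine receptors, had 40.6, 49.7 and 58.7 CPM with agonist and 83.8, 57.1 and 73.0 with vehicle (-0.52 ± 0.20, SE). Stat2, a carrier of interferon signals, was at -0.54 ± 0.31, and at -0.30 without vehicle replicate 1. Stat6, the carrier of IL-4 signals, was at -0.17 ± 0.16 with overlapping groups. Jak1, the kinase that serves gp130, was at 0.11 ± 0.31 and turned to -0.16 without vehicle replicate 3. The 14 other brakes on the pathway were all tested, with 5 positive, 9 negative, 0 called and a median of -0.0093, with single libraries left out running from -0.040 (vehicle replicate 1) to 0.0014 (agonist replicate 2). Socs5 had 64.5, 63.7 and 89.3 CPM with agonist and 49.6, 62.6 and 54.8 with vehicle, without overlap (0.38 ± 0.18). It was at 0.20 without agonist replicate 3, and 3.02% of all genes tested were higher with agonist without overlap. Socs4 and Pias4, an inhibitor of activated STAT proteins, were at 0.15 ± 0.16 and -0.28 ± 0.20, and at 0.041 and -0.098 without vehicle replicate 1.

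Genes linked to STAT5 in the mammary gland were mostly negative, with 3 positive and 13 negative among 16 tested of 17, 0 called and a median of -0.17. That median rested on vehicle replicate 2, without which it was 0.071, and it was -0.42 without agonist replicate 2. The list mixes milk proteins with growth and survival genes. The groups did not overlap for 1 of its genes lower with agonist and for 1 higher, beside 4.22% and 3.02% of all genes tested. Lalba, the alpha-lactalbumin gene, had 354, 330 and 175 CPM with agonist and 484, 585 and 531 with vehicle, and its groups did not overlap (-0.90 ± 0.27, SE). Lalba was the only gene of this list with an unadjusted p under 0.05 (0.0102, adjusted p 0.99 by edgeR). Over all genes tested that share was 3.09%. The beta-casein gene Csn2 had 206, 607 and 148 against 159, 1375 and 46.2 CPM. Vehicle replicate 2 set its mean, and the log2 fold change of -0.72 ± 1.19 became 1.64 without that library. Elf5, the alveolar transcription factor that works with STAT5, had 377, 401 and 487 against 269, 552 and 534 CPM (-0.099 ± 0.28). The kinase gene Pim1 was at -0.45 ± 0.24, and at -0.26 without vehicle replicate 2. The growth factor gene Areg, at 0.26 to 1.89 CPM, was at -0.96 ± 0.67, and at -0.15 without vehicle replicate 3.

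Genes linked to STAT3 were split evenly, with 8 positive and 8 negative among 16 tested of 17, 0 called and a median of -0.0092. The median was -0.23 without vehicle replicate 3 and 0.15 without vehicle replicate 2. Lrg1, a secreted glycoprotein of the acute phase, had 178, 170 and 152 CPM with agonist and 214, 282 and 225 with vehicle, without overlap (-0.53 ± 0.16, SE). Of all genes tested, 4.22% were lower with agonist without overlap. Bcl3, a partner of NF-kappaB, had 29.2, 19.2 and 34.0 against 48.8, 44.0 and 33.7 CPM (-0.62 ± 0.24), with agonist replicate 3 just above vehicle replicate 3. Igfbp5, which binds insulin-like growth factors in the involuting gland, was at -0.60 ± 0.27, and at -0.91 without agonist replicate 3.

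**Figure D4:**
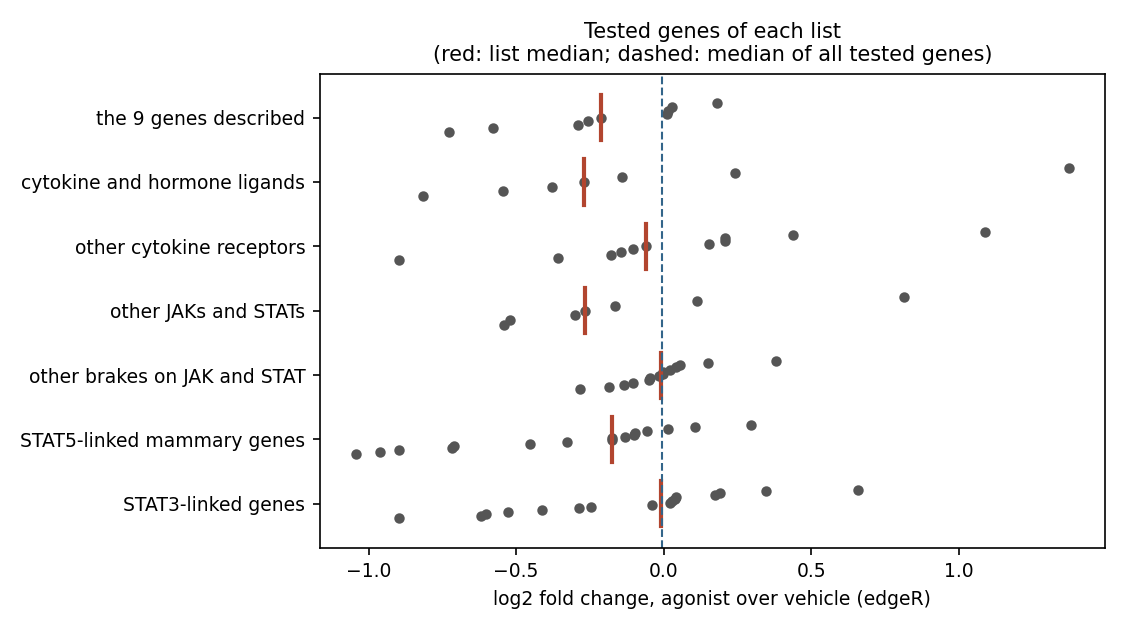
Log2 fold change of agonist over vehicle (horizontal axis) for every tested gene of each list, 1 point per gene, with the list median in red and the median of all 17396 genes dashed. The medians run from -0.27 to -0.0092, and no gene shown had an adjusted p under 0.05.

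The genes whose levels tracked Prlr, Cish and Socs3 most closely over the 6 libraries were found by the root mean square difference of centred log2 CPM, among 10797 candidates. Tet3, Macroh2a1 and Ankrd17 followed Prlr with differences of 0.022, 0.027 and 0.031, where the Prlr profile itself had a root mean square of 0.11. Atg16l2, Dedd2 and Faap100 followed Cish (0.043, 0.070 and 0.091, against 0.28). Znhit3, Timp3 and Xirp2 followed Socs3 less closely (0.15, 0.17 and 0.19, against 0.50). With so many candidates and 6 libraries, close profiles are a description only.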

How the data were processed

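The authors deposited, per the file headers, RSEM expected counts (estimated reads per gene) and TPM for each library. The deposited TPM are corrected for transcript length by RSEM. Per the submitters' processing notes the build was GRCm38 and the tools were STAR 2.7.9a and RSEM 1.3.1, after FastQC 0.11.9 and cutadapt 3.5, with DESeq2 1.36.0 in R 4.1. The sources used here give neither an annotation release nor a strand setting. Libraries summed to 36577451 to 42595799 expected counts, which were rounded to whole numbers. Floors of 3 counts cover counting error only, while the intervals of fold changes come from the spread between libraries.

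Groups were compared in R 4.3.3 by edgeR 4.0.16 on these counts, using TMM scaling, filterByExpr (minimum count 10, total 15), robust quasi-likelihood F tests and Benjamini-Hochberg adjustment over 17396 genes. A standard error is the size of the log2 fold change over the root of its F statistic. The edgeR, DESeq2 and limma-voom steps were tested on simulated counts, with planted fold changes larger than those of Stat5a and Stat5b. The limma-trend step was not part of that test. Gene positions are from GENCODE M21 and promoter windows from RefSeq, both on GRCm38.

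The 9 genes, the 6 lists with 79 other pathway genes and the 10 marker lists were chosen with earlier results of these data known. Named genes are the 9, the 3 genes of each pathway list with the smallest unadjusted p, Ghr, Jak1, Stat6, Csn2, Lalba, Elf5, Pim1, and the nearest profiles of Prlr, Cish and Socs3 at a mean log2 CPM of at least 3. A further gene that the rule names is not reported here. No list was tested as a set. Alternatives were other scalings and filters, DESeq2 1.42.0, limma 3.58.1 (voom with quality weights, and trend on log2(TPM + 1) or log2(TPM + 0.1)), the replicate block, each library left out, and, chosen after seeing the data, the summed luminal markers as a covariate.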

Additional observations from a re-analysis of the deposited data

How the results depend on the processing

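Stat5a and Stat5b stayed negative in all 17 alternatives, and 0 of the 9 genes had an adjusted p under 0.05 in any. Of 153 values of the 9 genes under alternatives 141 kept their direction and 12 turned, in Prlr, Socs1, Socs2 and Socs3. Leaving out 1 library at a time, the log2 fold change ran from -0.87 to -0.57 for Stat5a, -0.64 to -0.51 for Stat5b, -0.026 to 0.14 for Prlr, -0.15 to 0.20 for Socs1, -0.83 to 0.22 for Socs2 and -0.22 to 0.51 for Socs3. It ran from -0.48 to 0.53 for Ghr, -0.16 to 0.40 for Jak1, -1.58 to 1.64 for Csn2, -0.36 to 0.071 for Elf5, -0.024 to 0.15 for Tet3, -0.048 to 0.10 for Macroh2a1, -0.0054 to 0.12 for Ankrd17, -0.16 to 0.44 for Znhit3 and -0.094 to 0.44 for Timp3. Over the same fits 2 to 4 of the 9 genes (4 without agonist replicate 3, vehicle replicate 2 or vehicle replicate 3) had groups without overlap, where the share of all genes was 12.1% to 33.0% against 7.24% with all libraries, and 2 to 3 an unadjusted p under 0.05. Over all genes 315 (without agonist replicate 3) to 2442 (without vehicle replicate 2) had an unadjusted p under 0.05, against 538 with all libraries, and 0 were called in each.

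Over all genes the number at an unadjusted p under 0.05 was 847 without a low-count filter, where more genes were tested, 1210 with limma-voom and 2213 with the luminal covariate, and DESeq2 called 5 genes. With the luminal covariate 4 of the 9 genes had an unadjusted p under 0.05, beside 12.7% of all genes, Prlr was at -0.051, Csn2 at 2.08, Elf5 at 0.12, Tet3 at -0.049, Macroh2a1 at -0.050 and Ankrd17 at -0.030. With limma-voom Ghr was at 0.28, Csn2 at 0.42 and Elf5 at 0.12. On log2(TPM + 1) Ghr was at 0.058, Csn2 at 0.29, Elf5 at 0.014 and Macroh2a1 at -0.054, and on log2(TPM + 0.1) at 0.066, 0.29, 0.014 and -0.055. The causes were not tested.

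With the replicate block Stat5a was at -0.75 and Stat5b at -0.58, Ghr turned to 0.078 and Csn2 to 0.30, and 488 genes had an unadjusted p under 0.05, with 0 called. Whether the replicate numbers pair the samples is not settled by these libraries. Deviations of same-numbered libraries correlated at 0.172, 0.0377 and 0.0628 across genes, and those of the other pairs at -0.109 to 0.055. Agonist replicates 1 and 3 correlated best with their own number, and agonist replicate 2 with vehicle replicate 3 (0.055). Depth limits Socs1 most, at 45 to 70 counts per library.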

Other observations

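Stat5b, Stat5a and Stat3 lie in a row over 158810 bases of chromosome 11, with 8626 bases between the gene bodies of Stat5b and Stat5a. The other genes of this stretch were looked at by position, after the Stat5a and Stat5b values were seen. All 8 other tested genes within 100 kb of the row had negative log2 fold changes, from -0.65 to -0.049 with a median of -0.36, and the groups overlapped for each of the 8. Over all genes tested 8817 of 17396 were negative. The tested gene next to Stat3 was Cavin1, a caveola coat gene (-0.34 ± 0.48, SE), and those next to Stat5b were Ghdc (-0.24 ± 0.23) and then Rab5c, a gene of endosome traffic (-0.049 ± 0.17). Farther out, the proton pump subunit gene Atp6v0a1 was at -0.37 ± 0.24 and the antiviral sensor gene Dhx58 at -0.63 ± 0.39. The lowest value, -0.65 ± 0.70, was that of Zfp385c, a scarce gene with a mean log2 CPM of -1.93. Groups without overlap made up 7.24% of all genes tested. With so low a share, 0 of 8 could not set these genes apart from the rest either way.

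The mean length of the Stat5a transcripts, as RSEM weighted them, was 3568, 3223 and 3537 bases with agonist and 3227, 3077 and 3275 with vehicle. For Stat3 it was 3785, 3424 and 3603 against 3163, 3443 and 3308 bases. Agonist replicates 1 and 3 had the longest means of both genes, and agonist replicate 2 lay inside the vehicle range. For Stat5b, whose mean length was 4966 to 5048 bases with agonist and 4903 to 4962 with vehicle, the groups did not overlap by a margin of a few bases.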
